A study of Rattus norvegicus with 8 samples.

Results

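The genes that import cholesterol into ovarian granulosa cells and turn it into progesterone were followed on 8 arrays. The members were chosen by annotation: a probe set was taken where the platform's table named exactly 1 of 7 listed genes, which were Star, Cyp11a1, Hsd3b1, Fdx1, Fdxr, Por and Scarb1. This gave 10 probe sets for 6 of the 7 genes, out of 20826 probe sets with 1 gene symbol and 31042 that were no controls. No probe set naming Fdxr alone was listed, and that gene is not analysed here. All 10 probe sets were measured, which means that each lay above its array's median signal on at least 2 arrays.

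Granulosa cells are the somatic cells of the follicle that surround the oocyte. Per the series' design text, immature rats were given eCG, a gonadotropin that makes follicles grow, and after 24 h either anti-eCG antibody, which sends follicles into atresia (degeneration), or pre-immune serum. Oocytes of the antibody group developed to term in 0% of cases (poor developmental competence) and those of the serum group in 30 to 50% (normal developmental competence), and the RNA came from the granulosa cells of such follicles. The labels of the 8 arrays differ only in a number, so no array could be placed in a treatment group and no comparison of the treatments was made. Nor do the labels say whether the arrays come from separate animals or pools. Strain, age and the number of animals are not given in the sources used here.

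Progesterone synthesis begins with cholesterol, which rodent ovarian cells take largely from high-density lipoprotein (HDL) through the receptor SR-BI, the product of Scarb1. The product of Star carries it to the inner mitochondrial membrane, where the enzyme encoded by Cyp11a1 cuts off the side chain and leaves pregnenolone. That reaction needs electrons, which pass from NADPH to ferredoxin reductase (Fdxr), then to ferredoxin (Fdx1) and on to the enzyme. A 3beta-hydroxysteroid dehydrogenase of the Hsd3b family turns pregnenolone into progesterone. Por encodes the reductase that feeds electrons to cytochrome P450 enzymes of the endoplasmic reticulum, among them aromatase. The pathway is present in growing follicles and rises steeply when granulosa cells luteinize.

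Upstream sequences are shown for 4 genes whose products act in 1 chain or whose signals were most alike, so that the letters before their starts can be compared. The RefSeq promoter table of the GRCr8 build held 5 of the 7 members, and Hsd3b2 was added because 1 of the 2 identifiers of the Hsd3b1 probe set belongs to it. Each run is the 250 bases before the annotated start, 5′ to 3′ on the gene's strand. Capitals mark AGGTCA, the half-site of many nuclear receptors that Nr5a1 also reads, and GGGCGG, the GC box bound by Sp1, each searched on both strands (TGACCT and CCGCCC on the other), and no match of one overlaps a match of the other in the printed windows.
Cyp11a1, chr8:67318415-67318664, plus strand: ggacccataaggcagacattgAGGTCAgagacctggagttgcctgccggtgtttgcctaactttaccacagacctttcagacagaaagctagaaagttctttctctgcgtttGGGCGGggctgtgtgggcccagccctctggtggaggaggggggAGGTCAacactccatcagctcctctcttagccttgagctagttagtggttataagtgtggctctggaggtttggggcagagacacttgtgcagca
Fdx1, chr8:61183646-61183895, minus strand: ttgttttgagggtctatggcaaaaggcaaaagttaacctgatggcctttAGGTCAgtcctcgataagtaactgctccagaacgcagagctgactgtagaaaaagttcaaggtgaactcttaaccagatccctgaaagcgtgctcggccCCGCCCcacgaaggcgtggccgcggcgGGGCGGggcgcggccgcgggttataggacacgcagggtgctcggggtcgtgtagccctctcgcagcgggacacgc
Hsd3b2, chr2:188794070-188794319, minus strand: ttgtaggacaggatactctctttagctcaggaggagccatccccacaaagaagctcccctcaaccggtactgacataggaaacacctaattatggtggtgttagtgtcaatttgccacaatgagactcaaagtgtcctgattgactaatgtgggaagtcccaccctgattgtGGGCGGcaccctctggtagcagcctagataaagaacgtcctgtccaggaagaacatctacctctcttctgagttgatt
Por, chr12:26635810-26636059, minus strand: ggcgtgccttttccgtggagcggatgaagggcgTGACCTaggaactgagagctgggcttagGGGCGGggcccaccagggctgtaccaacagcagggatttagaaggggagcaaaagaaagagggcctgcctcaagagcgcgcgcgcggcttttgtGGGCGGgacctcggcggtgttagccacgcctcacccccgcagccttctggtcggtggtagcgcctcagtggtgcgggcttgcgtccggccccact

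The Cyp11a1 window held AGGTCA 2 times, at -229 and -95 (first base of the match, counted back from the start), and the Fdx1 window held it 1 time, at -201. The Por window held it 1 time on the other strand, at -217, and the windows of Hsd3b2, Hsd3b1 and Fdxr held 0. GGGCGG was found 1 time before Cyp11a1, at -138, 2 times before Fdx1, at -102 on the other strand and at -75, 2 times before Por, at -189 and -95, 1 time before Hsd3b2, at -78, and 3 times before Fdxr, but 0 times before Hsd3b1. Over 33469 windows of the same length, 14.1% held AGGTCA and 30.5% held GGGCGG on either strand. A match describes letters and shows no binding, and the arrays do not measure it.

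By the inner range, Scarb1 varied most between arrays and Cyp11a1 least, and Cyp11a1, Fdx1 and Hsd3b1 shared 1 high array, 2195. For each probe set, the inner range is the second highest array over the second lowest, so that 1 array far from all others does not set it, and the full range is the highest over the lowest. It reached 2-fold or more in 1 of the 6 genes, each taken at its brightest probe set, and in 3 of the 10 probe sets. Among all 10513 measured genes the share was 29.8%, and among all measured probe sets with 1 gene symbol it was 31.7%. The median inner range of the 6 genes was 1.48-fold, against 1.71-fold over all measured genes. With all arrays unassigned, these are descriptions with no test. Fewer cells of a type and less RNA per cell cannot be told apart in such samples, and precision is limited by having 8 arrays.

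Some arrays stood apart in all genes and not only in the members. The median absolute log2 difference between arrays 2074 and 2076 was 0.28, while each of this pair lay 0.44 to 0.59 from the other 6 arrays. Array 2195 lay 0.44 to 0.48 from the other 5 arrays numbered 2194 to 2199, which differed among themselves by 0.30 to 0.44. Granulosa markers were present: 8 of the 9 listed had a probe set with 1 gene name and all 8 were measured, with a summed signal of 114198 on array 2196 to 221675 on array 2074. Fshr had no such probe set. Theca markers summed to between 2290.0 and 6536, with 3 of 4 measured. Cyp17a1, the theca enzyme of androgen synthesis, was at the floor on 5 arrays, Insl3 on 3 and Aldh1a1, with 1602 to 5253, on 0. The floor is the array's 40th percentile, to which lower signals were raised for ranges and orders. Summed signals were left as measured, also under the floor and for genes not measured.

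Scarb1 showed the widest spread, and both of its probe sets were highest on arrays 2074 and 2076. Probe set 1386956_at gave 46007 on array 2074, 27946 on 2076, 9206 on 2194, 17619 on 2195, 10308 on 2196, 21946 on 2197, 20596 on 2198 and 14157 on 2199. The 2 highest arrays did not overlap with the other 6. Its inner range was 2.71-fold, its full range 4.997-fold, and 92.0% of measured genes had a smaller inner range.

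The weaker Scarb1 probe set, 1367855_at, gave 22016 on array 2074, 12076 on 2076, 2128 on 2194, 3643 on 2195, 1712 on 2196, 3052 on 2197, 4711 on 2198 and 2384 on 2199. The same 2 arrays stood above the rest, here with a wider gap. The inner range was 5.67-fold and the full range 12.9-fold, and 99.7% of genes had a smaller inner range. Without array 2074 the inner range was 2.203-fold and without 2076 it was 2.202-fold. Arrays 2074 and 2076 lay at 8.16 and 4.48 times the median of the other 6 arrays on this probe set and at 2.91 and 1.77 times on the brighter one. The size of the gap thus differed between the probe sets, while on both of them, and with each of 3 ways of scaling the arrays, 2074 and 2076 were the 2 highest.

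Of the 28 possible pairs of arrays, 25 stood in the same order on both Scarb1 probe sets. Among the 2664 genes with at least 2 measured probe sets the median was 15, and 1.6% reached 25 or more. Over arrays 2194 to 2199 alone the inner range was 1.997-fold on the brighter probe set and 1.68-fold on the weaker one. Without array 2194 the brighter probe set had 1.97-fold and without array 2196 also 1.97-fold, so the single member count of 2-fold or more became 0. Arrays 2074 and 2076 both lay above the other 6 in 13.6% of measured genes and both below in 14.5%.

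Por followed Scarb1 in its 2 high arrays. Its brighter probe set, 1387109_at, gave 5325 on array 2074, 7777 on 2076, 2125 on 2194, 3855 on 2195, 4081 on 2196, 3009 on 2197, 3974 on 2198 and 3008 on 2199. Arrays 2074 and 2076 again did not overlap with the other 6, although here 2076 was the higher. The inner range was 1.77-fold and the full range 3.66-fold. Over arrays 2194 to 2199 the inner range was 1.32-fold.

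The second Por probe set, 1368213_at, was weak. It ran from 500.5 on array 2198 to 1014 on array 2195 on 7 arrays, and array 2197 was under the floor. There the 2 arrays that stood out on the bright probe set, with 612 and 948, overlapped with the rest. The probe sets placed 19 of 28 array pairs in the same order, a count that 26.1% of genes with 2 measured probe sets reached.

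Of the 7 lists of markers for other cell types, the erythroid and luteal sums were higher on both arrays 2074 and 2076 than on the other 6. The summed erythroid markers Hbb and Alas2 (2 of 4 listed had a probe set) gave 48897 on array 2074 and 13218 on 2076 against 3797 to 10335 on the other 6. Hbb made up most of this sum, with 45704 and 12573, and Alas2 overlapped with the rest (645 on array 2076, 669.5 on 2196). The summed luteal markers Ptgfr and Parm1 gave 5008 and 5259 on that pair against 1422 to 2729, of which Ptgfr was not measured and Akr1c18 had no probe set of its own name. Parm1 made up most of this sum, with 4599 and 5065 against 1109 to 1761, and Ptgfr overlapped with the rest. Theca markers gave 6536 on array 2074 but on 2076 the lowest sum, 2290.0, against 2439 to 4822 on the rest. Most of these 2 sums came from Aldh1a1, with 5253 and 1602. Stroma markers gave 5681 and 3096 against 2066 to 3700, leukocyte markers 7072 and 4830 against 3623 to 7948, endothelial markers 863 and 1177 against 441 to 3048, and oocyte markers 1346 and 1761 against 760 to 2916. Within these lists Col1a2 lay above the other 6 on both arrays. Csf1r lay below, with 179 (under the floor) and 526 against 871 to 1891, and the rest overlapped. Of the granulosa markers, Foxl2 (10432 and 8098 against 3572 to 6927) and Inha (90530 and 69907 against 26724 to 54083) lay above. The other measured granulosa markers overlapped. On array 2198 all endothelial signals were under the floor, and only 2 of 5 oocyte genes were measured. The part of these cells in the Scarb1 and Por values was not tested.

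**Figure D1:**
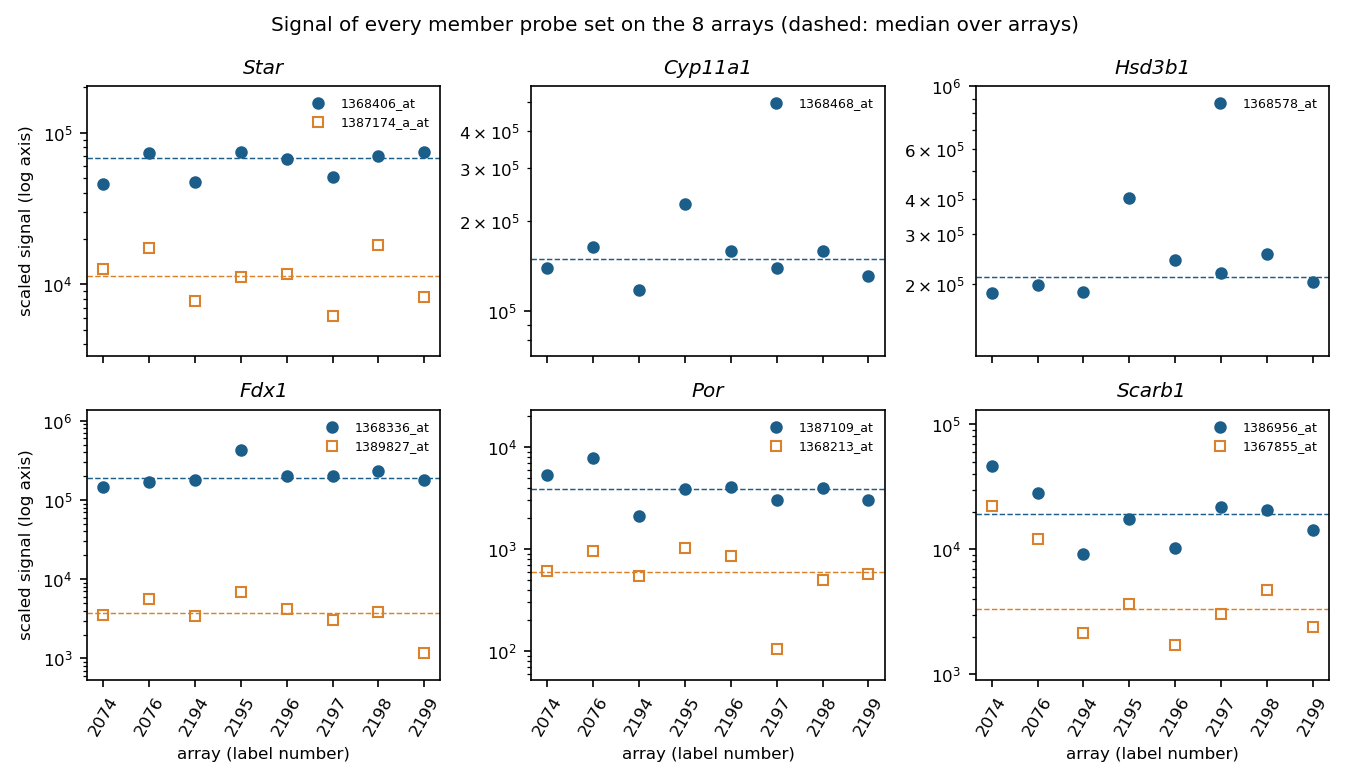
Scaled signal (log axis) of each member probe set on the 8 arrays, one panel per gene, with filled circles for the brightest probe set, open squares for the next and dashed lines for medians over arrays. Scarb1 is highest on arrays 2074 and 2076 on both probe sets, while Cyp11a1, Hsd3b1 and Fdx1 are highest on array 2195.

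Star, the gene of the cholesterol carrier, varied moderately and not in step with Scarb1 on its brighter probe set. Its brighter probe set, 1368406_at, gave 45984 on array 2074, 73410 on 2076, 47217 on 2194, 74061 on 2195, 66631 on 2196, 50954 on 2197, 69895 on 2198 and 74799.9 on 2199. Arrays 2074, 2194 and 2197 lay between 45984 and 50954, and the other 5 between 66631 and 74799.9. Array 2074, the highest for Scarb1, was the lowest for this Star probe set on the primary scale, and 2194 was the lowest with no scaling or quantile normalization. The inner range was 1.57-fold and the full range 1.63-fold. No single array decided this range, since it stayed between 1.44-fold and 1.56-fold when each array was left out in turn.

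The second Star probe set, 1387174_a_at, gave a different order. It ran from 6112 on array 2197 through a median of 11392 to 18197 on array 2198, with an inner range of 2.25-fold. Without array 2076 that range was 1.618-fold, without 2198 it was 1.615-fold, and over arrays 2194 to 2199 it was 1.498-fold. Array 2199, the highest on the first probe set, was the third lowest here with 8226. Of the 28 array pairs, 14 stood in the same order on the 2 probe sets, and 65.1% of genes with 2 measured probe sets had at least that many. The order of arrays in Star depended on which probe set was read.

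Cyp11a1, the side-chain cleavage enzyme and first committed step of steroid synthesis, was among the steadiest genes on the arrays by the inner range. Its only probe set, 1368468_at, gave 139688 on array 2074, 164033 on 2076, 117741 on 2194, 227783 on 2195, 159527 on 2196, 139126 on 2197, 158777 on 2198 and 131765 on 2199. Array 2195 stood 1.39-fold above the next highest. The inner range of 1.24-fold (log2 0.32) was one that only 5.2% of measured genes fell below, and the full range was 1.935-fold. Most measured genes are dimmer, and no comparison with equally bright genes was made. The probe set ranked between 14th and 25th brightest of 31042 on every array.

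Fdx1, the ferredoxin that hands electrons to Cyp11a1, was also steady apart from array 2195 on its bright probe set, but not on its second one. Probe set 1368336_at gave 144713 on array 2074, 167417 on 2076, 180071 on 2194, 425261 on 2195, 200611 on 2196, 201439 on 2197, 232399 on 2198 and 180834 on 2199. Array 2195 was 1.83-fold above the next highest and 2.35-fold above the median of the other 7, and arrays 2074 and 2076 were the lowest with each way of scaling. The inner range was 1.39-fold and the full range 2.94-fold. Its second probe set, 1389827_at, also peaked on array 2195 (6868, against 5692 on 2076) but had its lowest value, 1160.2, on array 2199, where the first did not stand out. On the second probe set the inner range was 1.84-fold and the full range 5.92-fold, and 59.7% of measured genes had a smaller inner range. The pair of probe sets agreed in 16 of 28 array pairs.

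The 3beta-hydroxysteroid dehydrogenase gene, which makes progesterone itself, had 1 probe set named Hsd3b1 alone. Probe set 1368578_at gave 185596 on array 2074, 198043 on 2076, 187607 on 2194, 400944 on 2195, 243168 on 2196, 218898 on 2197, 255129 on 2198 and 203540.0 on 2199. Array 2195 was 1.57-fold above the next highest and the other 7 lay within 185596 to 255129. The inner range was 1.36-fold. The identity of the gene is uncertain, because the platform table pairs this probe set with the gene identifier of Hsd3b1 but with a transcript that the RefSeq gene table of the GRCr8 assembly gives to Hsd3b2, a gene that also carries Hsd3b1 as a synonym.

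A further probe set was annotated to Hsd3b3, Hsd3b1 and Hsd3b2 together and fell outside the rule. It ran from 501 on array 2076 to 1772 on array 2195 with an inner range of 2.74-fold. It shared the order of 21 of 28 array pairs with the first, and it too was highest on array 2195. Genes of this family are closely related, and these probe sets may not separate them. Such a mismatch was uncommon in the table: of 2901 probe sets with 1 symbol whose transcript the RefSeq table held, 13 had a transcript of another gene identifier.

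**Figure D2:**
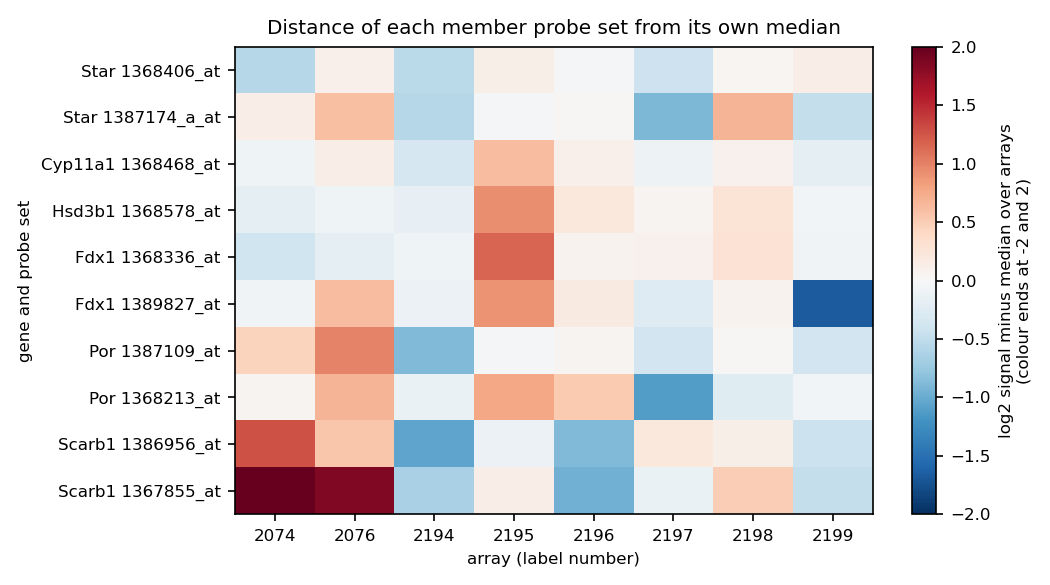
Log2 signal of each member probe set minus its own median over the 8 arrays (colour, ending at -2 and 2), with arrays in columns by label number. Red cells gather on array 2195 for Cyp11a1, Hsd3b1 and Fdx1 and on arrays 2074 and 2076 for Scarb1, up to 2.72 for the weaker Scarb1 probe set on array 2074.

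The values on array 2195 were high on the primary scale and unscaled, but mostly not with quantile normalization. On the primary scale, array 2195 stood above the median of the other 7 by 1.63-fold in Cyp11a1, 1.97-fold in Hsd3b1 and 2.35-fold in Fdx1. With the deposited signals unscaled these were 1.48-fold, 1.81-fold and 2.16-fold. With quantile normalization, which gives every array the same set of values and so compares only ranks, they were 1.14-fold, 0.9498-fold and 1.17-fold. Hsd3b1 was then lowest on array 2195 and Cyp11a1 highest on array 2076, while Fdx1 was still highest on array 2195. On every array Hsd3b1 ranked between 2nd and 6th brightest, Fdx1 between 4th and 14th and Cyp11a1 between 14th and 25th. At such ranks quantile normalization leaves little room for a rise to show, so it cannot decide whether array 2195 was high. At their brightest probe sets, Star, Por and Scarb1 stayed between 0.836-fold and 1.11-fold on all 3 scales. The weak second Por probe set was highest on array 2195 on the primary scale, at 1.78-fold over the median of the other arrays. It was highest on array 2076 unscaled and with quantile normalization.

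Bright genes outside the members were also raised on array 2195. Over the 100 brightest measured genes outside the members, the median log2 distance from the gene's own median was 0.25 on array 2195, against -0.28 on array 2074 and -0.05 on each of 2076 and 2194. Of these 100 genes, 44.0% were highest on array 2195, compared with 23.6% over all other measured genes. Of the same 100, 17 were at least as far above their own median on array 2195 as Cyp11a1 (log2 0.61), 2 as Hsd3b1 (0.93) and 1 as Fdx1 (1.16). The part of this rise of bright genes in the values of the 3 members was not tested.

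**Figure D3:**
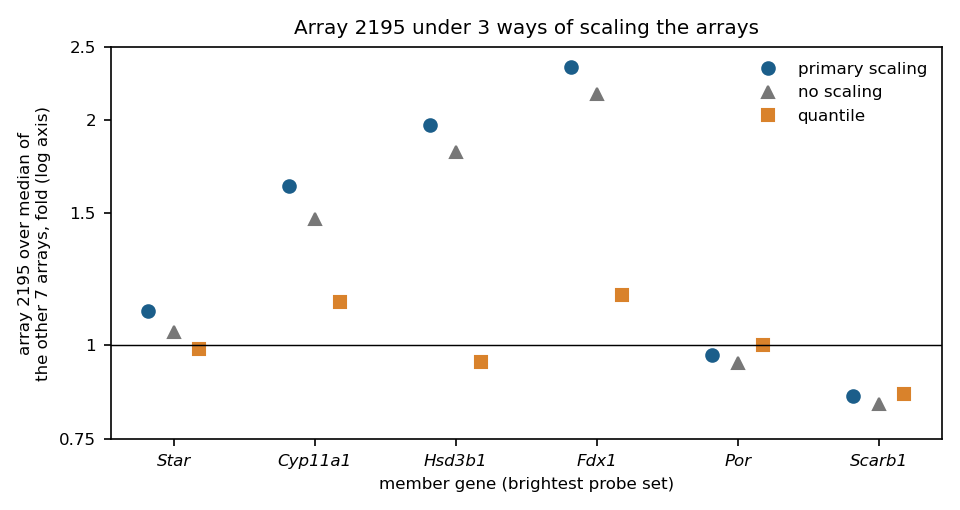
Signal on array 2195 over the median of the other 7 arrays, as a fold on a log axis, for the brightest probe set of each of the 6 member genes under 3 ways of scaling. Hsd3b1 goes from 1.97-fold on the primary scale to 0.9498-fold with quantile normalization, while Por and Scarb1 stay between 0.836-fold and 1.001-fold.

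Agreement between members was counted as the number of the 28 array pairs that stood in the same order in both genes. Hsd3b1 and Fdx1 agreed in 26, and only 0.2% of measured genes were at least as alike to Hsd3b1 and 0.3% to Fdx1. Cyp11a1 and Por agreed in 22, Star and Hsd3b1 in 21, Por and Scarb1 in 21 and Cyp11a1 and Hsd3b1 in 20. For these 4 pairs, between 3.3% and 14.7% of measured genes were at least as alike to 1 of the 2 genes. Over arrays 2194 to 2199 the 4 pairs agreed, in the order named, in 13, 11, 9 and 14 of 15. Over all 8 arrays the other 10 pairs had 11 to 19 of 28. Against any other measured gene the median count of a member was 13 to 15, and its 95th percentile 20 to 22, and 6 of the 15 member pairs had 14 or fewer. The count of Scarb1 was 11 both against Hsd3b1 and against Fdx1, below those medians. Over arrays 2194 to 2199 it was 10 and 11 of 15, so this low agreement was not found without arrays 2074 and 2076.

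The count for Hsd3b1 and Fdx1 was not the same under every scaling. It was 14 of 15 array pairs over arrays 2194 to 2199, but 25% of array pairs with quantile normalization. Star and Hsd3b1 went from 75% to 39.3% there and Cyp11a1 and Hsd3b1 from 71.4% to 39.3%. The Hsd3b1 probe set ranked between 2nd and 6th brightest on every array, so under that method some arrays tied. A tie counted as not the same order, which lowers these shares. Ties were not the whole of the drop for Hsd3b1 and Fdx1, since array 2195 was then lowest for Hsd3b1 and highest for Fdx1. As that method leaves little room at such ranks, these lower shares cannot decide whether agreement was lost. The ratio of Fdx1 to Hsd3b1 within an array needs no scaling. Its inner range was 1.16-fold and its full range 1.36-fold, and that of Hsd3b1 to Cyp11a1 was 1.21-fold and 1.46-fold. For the ratio of Fdx1 to Scarb1 they were 3.27-fold and 7.67-fold. The 3 ratios among Cyp11a1, Fdx1 and Hsd3b1 had inner ranges of 1.16-fold to 1.48-fold, and their ratios to Scarb1 2.20-fold to 3.27-fold. Over arrays 2194 to 2199 these were 1.04-fold to 1.11-fold and 1.68-fold to 1.84-fold. Without array 2074 the inner range of the ratio of Fdx1 to Scarb1 was 2.13-fold, and without 2076 also 2.13-fold.

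**Figure D4:**
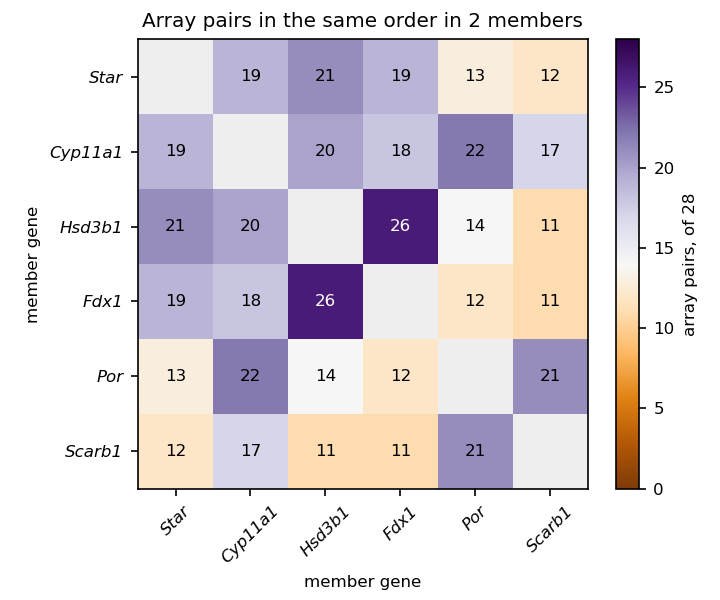
Number of the 28 array pairs that stand in the same order in 2 member genes, each taken at its brightest probe set, with purple above and orange below 14. The highest count is 26 for Hsd3b1 and Fdx1, and the lowest is 11 for Scarb1 with Hsd3b1 and with Fdx1.

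The measured genes most alike to each member by the same count were mixed. For Scarb1 they were Psmb10, a subunit of the immunoproteasome, and the potassium channel gene Kcnq1, each at 28 of 28, and the basement membrane collagen gene Col4a1 at 27. For Fdx1 they were Tbx2, Trim45 and Prkar1a, the regulatory subunit of cAMP-dependent protein kinase, each at 28. Hsd3b1 had the transporter gene Slco4a1 at 28 and the mitochondrial chaperonin gene Hspd1 and Tdrkh at 27. Por had Mrpl2, Ciz1 and Pes1 at 27. Star had Ing4, Pth1r and Icam5 and Cyp11a1 had Tchp, Kifc2 and Akt1s1, all at 26. Between 1 and 9 genes reached such a count for a member, among 10512 compared.

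Of 51 listed genes around the pathway, 46 had a probe set with 1 gene name and 43 were measured, and in 17 of these (39.5%) the inner range was 2-fold or wider, with a median of 1.82-fold. Over all measured genes the share was 29.8% and the median 1.71-fold. Arrays 2074 and 2076 both lay above the other 6 in 13 of the 43 (30.2%) and below in 2, beside 13.6% and 14.5% of all measured genes. With no scaling and with quantile normalization 14 of the 43 lay above. Each listed gene was read at its brightest measured probe set only. Several had more, such as Prlr with 3 in all and Abca1 with 4, and whether these agree was not examined.

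Among the receptors for trophic hormones, the inner range was 3.67-fold for Lhcgr, the receptor of luteinizing hormone, and 2.09-fold for Prlr, the prolactin receptor. Prlr was highest on arrays 2076 (50610) and 2074 (42779) and lay between 20385 and 31909 on the other 6. Lhcgr was not high on both, with 3662 on array 2074 and 1008 on 2076. Of 10 transcription factor genes 4 reached 2-fold. Nr5a1, which binds the promoters of many steroid enzyme genes, had 3.14-fold with 3942 on array 2074, Gata6 had at least 2.87-fold and Gata4 2.22-fold, and all 3 were highest on arrays 2074 and 2076 with each way of scaling. Nr5a2, its relative that is abundant in granulosa cells, had 1.24-fold. Without array 2196 the inner range of Lhcgr was 2.16-fold and without 2076 2.16-fold as well. It was 1.80-fold for Nr5a1 without array 2195 and 1.81-fold without 2198, and 1.33-fold for Gata4 without 2074 and 1.33-fold without 2076.

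Of 4 genes listed for electron transfer outside the members, 3 lay above the other 6 arrays on both 2074 and 2076. The remaining gene, Nsdhl, lay below, and its product acts in cholesterol synthesis rather than electron transfer. All measured genes had 13.6% above and 14.5% below. Fdx2, the ferredoxin of iron-sulphur cluster assembly, gave 2681 on array 2074 and 3541 on 2076 against 737 to 1430 on the other 6, an inner range of 3.16-fold. Cyb5r3, the cytochrome b5 reductase, had 2.28-fold and Cyb5a, cytochrome b5 itself, 2.16-fold, and in both the same 2 arrays were the highest. Nsdhl, an enzyme of cholesterol synthesis, had 1.47-fold and was lowest on those 2. Without array 2074 or 2076 Fdx2 had 1.675-fold and 1.679-fold. Fdx1, the other ferredoxin, was lowest on arrays 2074 and 2076 on its bright probe set but not on its second one, where these arrays overlapped with the rest.

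In HDL handling 3 of 5 measured genes reached 2-fold. Apoe, a lipoprotein component, had 2.88-fold, Lcat at least 2.85-fold and the cholesterol exporter Abca1 2.53-fold, and Scarb2, a lysosomal relative of Scarb1, had 1.49-fold. Apoe was highest on arrays 2074 (2495) and 2076 (1392) and under the floor on array 2194. Pdzk1, which anchors SR-BI in liver, and Cd36 were not measured. In the supply of cholesterol to mitochondria 2 of 12 measured genes did so, namely Lipe, a lipase that frees stored cholesterol, at 2.42-fold, and Osbpl1a at at least 2.05-fold. Stard3, a relative of Star in late endosomes, had 1.88-fold and Scp2 1.16-fold.

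Of 4 measured genes for progesterone removal and response, none had an inner range of 2-fold. Pgr, the progesterone receptor, had 1.91-fold, Akr1c14 1.71-fold, Pgrmc2 1.25-fold and Pgrmc1 1.20-fold. Of 6 measured other steroid enzymes 3 reached 2-fold. Aromatase (Cyp19a1) had 4.20-fold, Hsd17b1 2.44-fold and Cyp17a1 at least 2.24-fold, while Hsd17b4 had 1.35-fold. Cyp19a1 was 2.34-fold without array 2076 and 2.34-fold without 2196. Aromatase was lowest on array 2076 with 987, an array on which Cyp11a1, with 164033, was second highest.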

How the data were processed

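Granulosa cell total RNA was extracted with the RNeasy kit, biotin-labelled and hybridised to rat whole-genome Affymetrix arrays, 1 per sample, per the labels. The deposited values are linear probe set intensity, made with MAS5 by the authors per the submitters' processing notes (version not given in the sources used here). On every array their mean after trimming 2% at each end was 1500.5 to 1500.6. Of 31099 probe sets, 57 were controls and left out. After taking log2, each array was shifted to a common median over the probe sets above the array's median on all 8 arrays. Signals under the 40th percentile of an array were raised to it for ranges and orders, but printed as measured. MAS5 values are noisy at low signal. Of the probe sets, 20826 had 1 symbol, 436 several and 9780 none listed. RefSeq (GRCr8) held 20758 of the gene identifiers, and 0 symbols changed.

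Members, lists and alternatives were chosen with earlier results of these data known. Named are all members, per list the 3 widest genes and the narrowest, the 3 genes most alike to each member, and the markers. No comparison between groups was tested, because the labels give none, and Dixon's criterion marked single arrays. Python 3.11.15, numpy 2.4.6 and pandas 2.3.3 were used, and the steps were tested on simulated data. Results were recomputed with the deposited scale kept, with quantile normalization, with the floor moved to the 25th percentile or removed, with the measured rule asked of all 8 arrays or dropped, with probe sets of a gene averaged, by the full range, leaving out each array in turn, and over arrays 2194 to 2199 alone. Leaving out arrays 2074, 2076 and 2195 together was added after seeing the data.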

Additional observations from a re-analysis of the deposited data

Results flagged for a closer look

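For 77 measured probe sets of the members and lists, an array is given here where its gap to the nearest other array, as a share of the full log2 range of the 8 arrays, was above Dixon's 95% critical value for 8 values. About 1 in 20 sets of 8 values passes it by chance, and 5 of the 77 (6.49%) did. Hsd3b1 (1368578_at) passed with a ratio of 0.587 and Fdx1 (1368336_at) with 0.561, both for a high value on array 2195. With quantile normalization neither passed, and the largest gap was then at the low end, with 0.189 for array 2195 in Hsd3b1 and 0.196 for array 2074 in Fdx1. That method leaves little room for a rise to show in probe sets as bright as these. The second Fdx1 probe set (1389827_at) passed with 0.551 for its low value on array 2199. Outside the members, Nr5a2 passed with 0.559 for a low value on array 2194, where it gave 29562 against 39019 to 48582 on the other 7, and the erythroid marker Alas2 with 0.635 for a high value of 3194 on array 2074.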

How the results depend on the processing

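The count of member genes with an inner range of at least 2-fold, 1 in the primary setting, was also 1 under 7 alternatives of scaling, floor, filter and probe set choice, and ranged from 0 to 1 when each array was left out. It was 0 over arrays 2194 to 2199, 0 without arrays 2074, 2076 and 2195, and 4 by the full range, which is larger by construction. The count of probe sets, 3, was 8 by the full range, 0 over arrays 2194 to 2199 and 0 without those 3 arrays, 2 to 3 with each array left out, and 4 with quantile normalization. The median log2 inner range of the members, 0.56, was 1.33 by the full range and 0.33 to 0.67 under the other alternatives. Leaving out arrays narrows an inner range by construction. For single members 102 of 108 inner ranges computed under alternatives moved by less than 1.5 times and by less than the gene's SD over arrays. Of the other 6, 5 were full ranges and the sixth was Scarb1 with the mean of probe sets, at a log2 inner range of 2.05. Of 195 shares of array pairs in the same order, 181 were within 1.5 times of the primary share. The 14 others came from quantile normalization, the mean of probe sets, arrays 2194 to 2199 or, in 1 case, leaving out array 2194. No paired analysis was possible because the labels give no groups.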
